A study of Mus musculus with 12 samples.

Results

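Rnf43 encodes a membrane ubiquitin ligase of the Wnt pathway. Its transcript stood higher in Pdcd1 knock-in (KI) than in wild-type (WT) follicular helper T (Tfh) cells, and it was chosen by that difference in these same libraries. Its genotype values are therefore a description and carry no test. The other 8 genes were chosen by their place in the pathway. They are its paralog Znrf3, the destruction complex genes Axin1, Axin2, Apc and Gsk3b, the beta-catenin gene Ctnnb1, and the transcription factor genes Tcf7 and Lef1. Together they are 9 of the 25793 gene entries in the count table, and all 9 have an entry there and in the table of FPKM values (fragments scaled by transcript length and library size). Reads were too few in Axin2 and Znrf3 for the test across genes, which left 7 of the 9 among the 7542 genes tested. Neither the 6 tested members other than Rnf43 nor any of 69 further tested genes of the pathway and its targets passed the test between the genotypes.

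Polyadenylated RNA was sequenced from 6 WT and 6 KI libraries to compare Tfh cells with and without an altered Pdcd1, the gene of the inhibitory receptor PD-1. All libraries came from C57BL/6 OT-II CD4+ T cells, whose receptor recognizes an ovalbumin peptide, transduced to express GFP, with the genotype Pdcd1+/+ in WT and Pdcd1KI/KI in KI. Both kinds of T cell were placed in B6 hosts with MD4 B cells that express dsRed and recognize hen egg lysozyme, and the hosts received HEL-OVA with LPS and alum. On day 5 pools of 100 to 200 CXCR5hi GFP+ CD4+ cells were sorted from lymph node and their RNA was amplified with a protocol first made for single cells. The sources used here do not say what the knock-in allele changes, or whether the libraries of a genotype came from separate animals. The p-values below therefore measure the spread between these libraries, which may be technical. Each library name holds 2 numbers (WT 1-1 to WT 2-3, KI 1-1 to KI 2-3) whose meaning the labels do not give, and the first of them is called the first number.

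In the canonical Wnt pathway, Wnt ligands bind Frizzled receptors and LRP co-receptors at the cell surface. Without a ligand, a destruction complex built on the Axin and APC proteins lets the kinase GSK3-beta mark beta-catenin for degradation, and with a ligand beta-catenin reaches the nucleus and joins TCF-1 (from Tcf7) and LEF-1 (from Lef1) on DNA. RNF43 and ZNRF3 remove Frizzled from the surface, and R-spondins acting with LGR receptors block them. In the intestine, Rnf43 and Axin2 are themselves transcribed in response to Wnt and act as brakes on it. In CD4+ T cells, TCF-1 and LEF-1 are needed early in Tfh differentiation, upstream of the lineage factor Bcl6.

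Rnf43 spans chr11:87476224-87549041 on the + strand in GENCODE vM1 on the mouse build NCBIM37, which is mm9, the build named in the submitters' processing notes. The annotation gives it 10 transcripts, 5 of them coding, with 6558 exon bases. Of the coding transcripts, 1 begins at an internal start at position 87513399, 37.2 kb after the start of the gene. The other coding transcripts begin 365 to 1827 bases after the start of the gene. At the start of the gene itself only a noncoding transcript with a retained intron begins. The noncoding gene 1110028F11Rik (chr11:87514898-87518833, + strand, processed transcript) begins 1.5 kb after that internal start, inside Rnf43. Its 976 exon bases share 0 bases with Rnf43 exons. The 250 bases before these 3 starts are printed because the transcripts of this locus are described together below. Those of Axin2 and Tcf7 are added because Axin2 is a standard Wnt target and Tcf7 was the 1 member with a motif match, of the 8 members searched (all but Apc). The motifs were the core letters of TCF/LEF sites, CTTTGAA and CTTTGAT, on both strands, and a match is in capitals. The windows are chr11:87475974-87476223 for the Rnf43 gene start, chr11:87513149-87513398 for the internal start, chr11:87514648-87514897 for 1110028F11Rik and chr11:108781413-108781662 for Axin2, all on the + strand, and chr11:52096682-52096931 on the - strand for Tcf7.
Rnf43 gene start: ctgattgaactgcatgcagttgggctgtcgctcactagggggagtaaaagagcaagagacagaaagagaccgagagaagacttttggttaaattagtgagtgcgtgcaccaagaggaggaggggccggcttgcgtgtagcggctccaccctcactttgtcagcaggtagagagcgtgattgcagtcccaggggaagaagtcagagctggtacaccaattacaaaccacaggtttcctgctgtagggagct
Rnf43 internal start: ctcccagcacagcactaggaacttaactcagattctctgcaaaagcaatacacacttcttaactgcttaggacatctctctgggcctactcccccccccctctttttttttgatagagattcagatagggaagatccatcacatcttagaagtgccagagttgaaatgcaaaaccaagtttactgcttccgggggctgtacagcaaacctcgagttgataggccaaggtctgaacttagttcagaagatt
1110028F11Rik: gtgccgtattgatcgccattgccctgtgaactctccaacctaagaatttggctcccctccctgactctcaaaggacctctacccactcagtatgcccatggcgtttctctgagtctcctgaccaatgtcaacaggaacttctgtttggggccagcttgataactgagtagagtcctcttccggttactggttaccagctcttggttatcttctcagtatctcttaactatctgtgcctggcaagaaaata
Axin2: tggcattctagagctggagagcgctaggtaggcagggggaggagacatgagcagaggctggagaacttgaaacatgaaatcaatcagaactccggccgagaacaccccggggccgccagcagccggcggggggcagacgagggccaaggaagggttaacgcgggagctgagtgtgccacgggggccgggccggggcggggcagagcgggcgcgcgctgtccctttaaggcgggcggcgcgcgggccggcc
Tcf7: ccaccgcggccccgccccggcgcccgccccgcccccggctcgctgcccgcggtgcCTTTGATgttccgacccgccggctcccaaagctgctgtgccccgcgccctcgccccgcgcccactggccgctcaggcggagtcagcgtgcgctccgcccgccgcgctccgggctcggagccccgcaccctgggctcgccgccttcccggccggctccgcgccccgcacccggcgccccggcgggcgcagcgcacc
The Tcf7 window held 1 match, CTTTGAT, beginning at base 56 of the printed strand. The windows of the Rnf43 gene start, the Rnf43 internal start, 1110028F11Rik and Axin2 held none. Among the windows of the same length before all 37252 annotated genes, 2990 (8.0%) held at least 1 match, and 7.1% did among 22350 protein-coding genes. A match is a description of letters, not of a bound site.

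The libraries held from 717506 (WT 1-3) to 1801504 (KI 2-2) reads in genes, with a median of 1411040, and between 46.1% and 60.2% of the tabulated reads were assigned to a gene. WT 1-3 had both the lowest total and the lowest share assigned. The altered gene, Pdcd1, ranged from 166 to 523 CPM in WT and from 21.5 to 130 CPM in KI, so no KI library reached a WT one (CPM is the read count of a gene scaled to a common library total). What the allele changes is not known here, so this level describes the groups and does not test the labels. Sums of 5 T cell markers ran from 3792 to 4582 CPM in WT and from 3729 to 4793 CPM in KI. Sums of 8 Tfh markers, Pdcd1 among them, ran from 1827 to 2337 CPM and from 1585 to 2236 CPM. Both sums were thus present in all 12 libraries, but the genes of the Tfh sum were unequal. Cxcr5 averaged 593 ± 136 CPM in WT and 604 ± 204 CPM in KI, and Bcl6 9.41 ± 5.39 and 6.18 ± 5.23 CPM (SD, n = 6 each). The lowest Bcl6 level was 3.54 CPM in WT and 1.27 CPM in KI. Sums of 7 B cell markers were 83.7 to 209 CPM in WT (median 154) and 23.5 to 108 CPM in KI (median 51.5), with 1 of the 7, the B lineage factor gene Pax5, at 0 in every library. All 5 tested B cell markers were lower in KI, 4 of them at an unadjusted edgeR p under 0.05 and 0 after adjustment, and their part in the results below was not tested. In bulk RNA, fewer cells of a type and less RNA per cell cannot be told apart.

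Rnf43 was at 79.1 CPM in the lowest, 132 in the median and 207 in the highest WT library, and at 302, 369 and 421 CPM in KI. All 6 KI libraries lay above all 6 WT libraries, with a gap between WT 2-3 at 207 CPM and KI 2-2 at 302 CPM. The group means were 140 ± 48.0 and 374 ± 44.2 CPM (SD, n = 6 each). This is a log2 fold change of 1.41 (SE 0.22), or a 2.66-fold difference with a 95% interval of 1.93 to 3.67. The interval takes no account of the choice of Rnf43 by this difference. Of all 7542 tested genes, 0.225% had every KI library above every WT library and 0.146% the opposite, and 0.0265% (2 genes, Rnf43 and 1110028F11Rik) passed an edgeR adjusted p of 0.05 for KI against WT. These shares are background only, since Rnf43 was chosen on this contrast. That count of 2 genes fell to 0 without any 1 of WT 1-1, WT 1-2, WT 1-3, KI 1-1, KI 1-2, KI 1-3, KI 2-1 or KI 2-3, to 1 without WT 2-2, WT 2-3 or KI 2-2, and stayed at 2 without WT 2-1. The log2 fold change of Rnf43 itself ran from 1.29 to 1.56 over these fits.

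The higher level was present at both first numbers. At first number 1, Rnf43 was at 139.5, 107.3 and 123.5 CPM in WT and 419.9, 421.5 and 370.4 CPM in KI. At first number 2 the WT libraries spread more widely, at 79.1, 184.5 and 206.8 CPM, and the KI libraries were at 360.3, 302.1 and 367.7 CPM. The log2 fold changes within first numbers were 1.70 and 1.13. The interaction of genotype and first number was -0.58 (SE 0.38, edgeR adjusted p 0.804). No gene passed that interaction test (0.00% of 7542, with 544 genes at an unadjusted p under 0.05), so the members' interaction values below are given as estimates that did not pass.

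**Figure D1:**
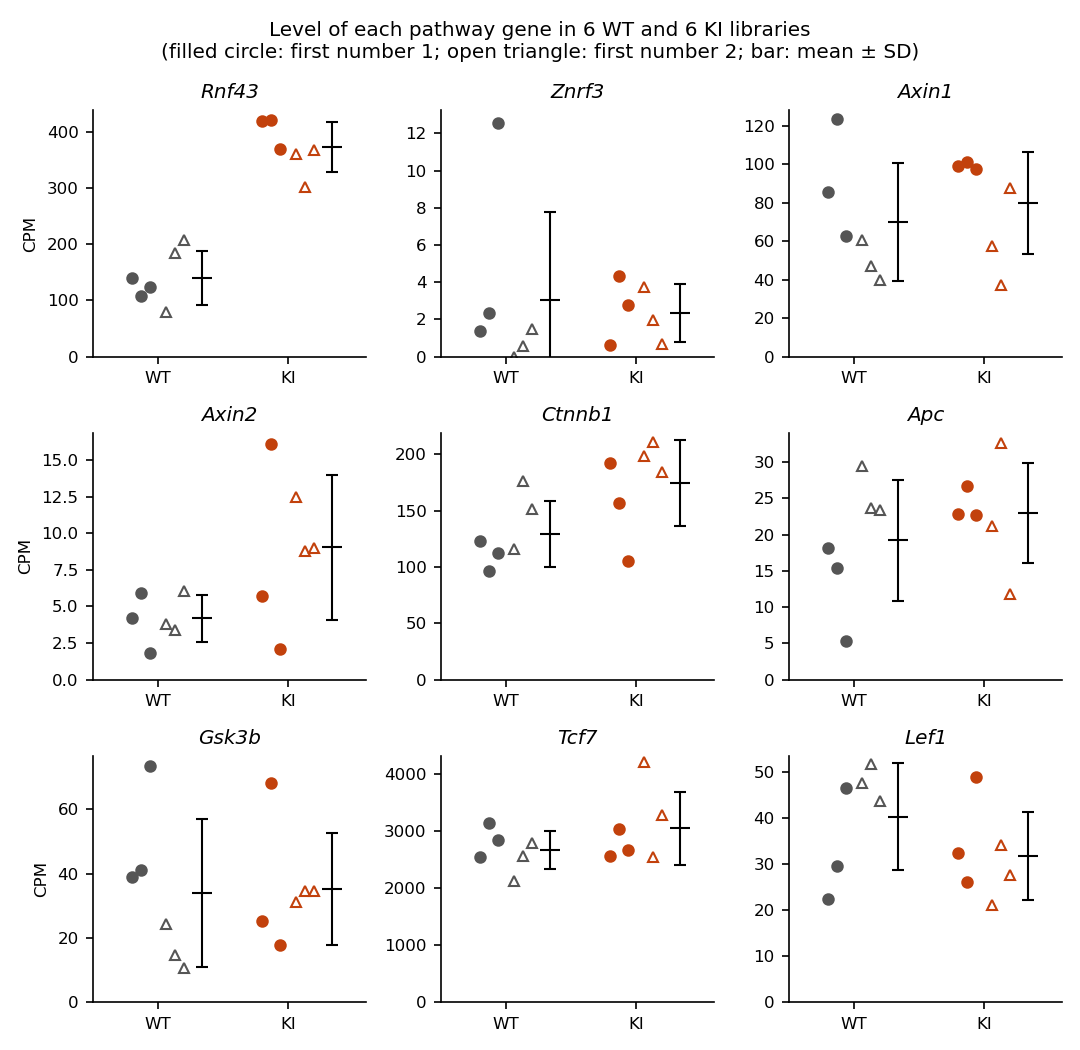
Level of each of the 9 genes in CPM (vertical axes, from 0) in 6 WT (grey) and 6 KI (orange) libraries, with first number 1 as filled circles, first number 2 as open triangles, and the mean ± SD as a bar (cut at 0 for Znrf3). Rnf43 separates the genotypes, from 79.1 to 207 CPM in WT against 302 to 421 CPM in KI, while the 2 groups overlap in the other 8 panels.

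Znrf3, the other ligase of the pair, was barely detected. Its raw counts were 2, 2, 7, 0, 1 and 2 in WT and 1, 7, 4, 3, 4 and 1 in KI, 34 reads in all against 4408 for Rnf43. The count of 0 in WT 2-1 allows up to 1.88 CPM, the level of 3 reads in that library, counting error only. The groups overlapped throughout, and the difference in mean log2(CPM + 1) was 0.14 (two-sided exact permutation p 0.831). At this depth a change of Znrf3 was not detectable.

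Per length, which allows genes to be compared, Tcf7 stood far above the rest. Its deposited FPKM was 725 ± 85.6 in WT and 853 ± 64.0 in KI (SD, n = 6 each). In WT, Ctnnb1 (27.3 ± 8.45 FPKM) and Rnf43 (22.4 ± 9.05 FPKM) came next and did not differ beyond their spread. In KI their order was reversed, with Rnf43 at 61.0 ± 10.3 FPKM and Ctnnb1 at 37.5 ± 10.5 FPKM. Axin1 (13.4 ± 5.58 in WT and 16.0 ± 5.91 in KI) and Lef1 (11.4 ± 3.60 and 9.27 ± 3.56) followed, with overlapping FPKM ranges. Gsk3b was at 2.69 ± 1.44 and 3.04 ± 1.43 FPKM. Apc (1.13 ± 0.55 and 1.36 ± 0.50 FPKM) and Axin2 (0.71 ± 0.29 and 1.51 ± 0.75 FPKM) were not separable from each other. Znrf3 was lowest, at 0.29 ± 0.39 and 0.25 ± 0.14 FPKM. The FPKM ranges of WT and KI overlapped for each of the 8 genes other than Rnf43.

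In the destruction complex, none of the 3 tested genes differed between the genotypes. Axin1, a scaffold of the complex (chr17:26275631-26332756), was at 40.0, 61.7 and 124 CPM in the lowest, median and highest WT library and at 37.0, 92.8 and 101 CPM in KI. The ranges overlapped almost fully, with a log2 fold change of 0.20 (SE 0.31, edgeR adjusted p 0.961). Apc, the other scaffold (chromosome 18), was at 5.37, 20.8 and 29.5 CPM in WT and 11.8, 22.8 and 32.6 CPM in KI. Its log2 fold change was 0.23 (SE 0.42, edgeR adjusted p 0.968). Gsk3b, the kinase (chr16:38089087-38246170), ran from 10.6 to 73.4 CPM in WT and from 17.9 to 68.2 CPM in KI, with medians of 31.8 and 32.9 CPM. The log2 fold change was 0.10 (SE 0.45, edgeR adjusted p 0.988). The 95% intervals, as folds of KI over WT, were 0.73 to 1.81 for Axin1, 0.64 to 2.17 for Apc and 0.56 to 2.05 for Gsk3b, so a moderate change of any of them lay within the error.

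Axin2, the inducible scaffold and a widely used readout of Wnt signalling (chr11:108781663-108812097), was below the filter. Its raw counts were 6, 5, 1, 6, 6 and 8 in WT and 9, 26, 3, 10, 18 and 13 in KI. In CPM this was 1.79 to 6.04 in WT (median 3.98) and 2.06 to 16.1 in KI (median 8.89). Of the KI libraries, 4 lay above all WT libraries, and KI 1-1 and KI 1-3 lay within the WT range. The difference in mean log2(CPM + 1) was 0.83, with a two-sided exact permutation p of 0.0823. The result depended on 1 library: without KI 1-3 the difference was 1.14 and the exact permutation p 0.00866. On log2(FPKM + 1) the difference was 0.51 and the exact permutation p 0.0411. The Axin2 difference therefore did not pass in the planned measure, and it rests on 111 reads over 12 libraries. Within first number 2 the 3 KI libraries (8.77 to 12.5 CPM) lay above the 3 WT libraries (3.37 to 6.04 CPM), an exact permutation p of 0.10, the smallest that 3 against 3 allow.

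Ctnnb1, which encodes beta-catenin (chr9:120838334-120869625), was at 96.7, 119 and 176 CPM in the lowest, median and highest WT library and at 105, 188 and 210 CPM in KI. Of the KI libraries 4 exceeded all WT libraries, and KI 1-3 at 105 CPM lay among the lowest of either group. The log2 fold change was 0.43 (SE 0.22), a 1.35-fold difference with a 95% interval of 0.98 to 1.85, and the edgeR adjusted p was 0.919. It was of about the same size within both first numbers, at 0.44 and 0.42. The data report transcripts only and not the stability of the protein, on which the pathway acts.

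Tcf7, which encodes TCF-1 (chr11:52065873-52096681, - strand), was at 2134, 2680 and 3142 CPM in the lowest, median and highest WT library and at 2543, 2856 and 4217 CPM in KI. KI 2-1 and KI 2-3 (4217 and 3286 CPM) were above all WT libraries and the other 4 lay within the WT range. The log2 fold change was 0.19 (SE 0.18), a 1.14-fold difference with a 95% interval of 0.88 to 1.48 and an edgeR adjusted p of 0.946. At first number 1 it was -0.057 and at first number 2 it was 0.43, with an interaction of 0.47 (SE 0.30, edgeR adjusted p 0.794). Over the fits that left out 1 library the log2 fold change ran from 0.070 to 0.24. The lowest value was that without KI 2-1. With 45753 reads in all, Tcf7 had the narrowest interval of the 7 tested genes. On the deposited FPKM values the log2 difference of (FPKM + 1) was 0.24 (limma adjusted p 0.916).

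Lef1, which encodes LEF-1 (chr3:130813389-130927274), was at 22.3, 45.2 and 51.7 CPM in the lowest, median and highest WT library and at 21.2, 30.0 and 48.8 CPM in KI. The log2 fold change was -0.34 (SE 0.33), with a 95% interval of 0.49 to 1.28 as a fold of KI over WT and an edgeR adjusted p of 0.948. The first numbers differed in sign. At first number 1 the means were 32.8 ± 12.4 CPM for WT and 35.7 ± 11.7 CPM for KI (SD, n = 3 each). At first number 2 all 3 KI libraries (21.2 to 34.1 CPM) lay below all 3 WT libraries (43.8 to 51.7 CPM). The share of all tested genes with such a split of 3 against 3 is not given here, so it is description only. The interaction of -0.92 (SE 0.64) did not pass, with an edgeR adjusted p of 0.812. Neither Tcf7 nor Lef1 thus differed between the genotypes beyond the spread between libraries.

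**Figure D2:**
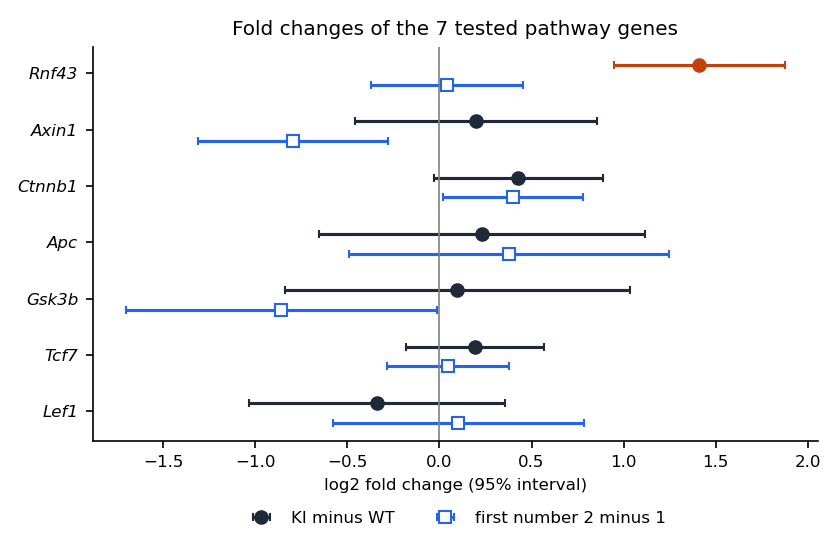
Log2 fold changes (horizontal axis) of the 7 tested genes with 95% intervals, for KI minus WT (filled circles, Rnf43 in orange as the gene chosen on this contrast) and for first number 2 minus 1 (open squares). Apart from Rnf43 at 1.41, the KI minus WT intervals of the 6 other genes include 0, and for the first number Axin1 lies lowest but for Gsk3b, at -0.80.

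Counted together, 0 of the 6 tested members other than Rnf43 passed the edgeR adjusted p of 0.05 for KI against WT, against 0.0265% of all tested genes. At an unadjusted edgeR p under 0.05 there were also 0 of the 6, against 5.40% of all tested genes. DESeq2 and limma-voom also called 0 of the 6. None of the 8 other members had its 6 KI libraries all above or all below the 6 WT libraries.

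The wider pathway was read from 10 lists of genes grouped by role, which held 165 genes with an entry in the count table beyond the 9. Of these, 53 had no read in any library and 69 were tested. In the edgeR test 0 of the 69 were called for KI against WT, and DESeq2 and limma-voom also called 0. At an unadjusted p under 0.05 there were 8 of 69, 3 higher and 5 lower, against 5.40% of all tested genes. By sign, 25 were higher and 44 lower in KI, against 3890 higher and 3652 lower of all tested genes, with a median log2 fold change of -0.16 beside 0.02 over all tested genes.

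Most of the outer pathway was not detected. Of 24 genes for Wnt ligands, R-spondins and the Frizzled ligand Norrin, 19 had no read at all and only Wnt10a was tested. Wnt10a averaged 7.56 ± 5.73 CPM in the WT and 14.1 ± 6.91 CPM in the KI libraries (SD, n = 6 each, as for each mean ± SD of a list gene below). Its log2 fold change was 0.91 (SE 0.64, edgeR adjusted p 0.938). Of 19 receptors and co-receptors, only Ryk, a Wnt-binding kinase-like receptor, was tested, at 7.51 ± 3.40 and 7.89 ± 5.11 CPM. Each of the other 18, all Frizzled, LRP and LGR genes among them, was below the filter, and the most read of them, Lrp6, had 21 reads over 12 libraries. Gpr177 (also Wls), which carries Wnt proteins out of the cell, was at 27.1 ± 19.3 and 27.0 ± 21.8 CPM. Of 18 inhibitors only the Dickkopf receptors were tested. Kremen2 had a log2 fold change of -0.75 (SE 0.40) and Kremen1 one of 0.43 (SE 0.42), and neither passed (edgeR adjusted p 0.919 and 0.948).

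Dishevelled proteins pass the signal from Frizzled to the destruction complex, and all 3 of their genes were tested. Dvl3 had the largest fold difference of the lists, at -2.86 (SE 1.04), with an unadjusted edgeR p of 0.0121 and an adjusted p of 0.914. Its WT mean rested on 1 library: Dvl3 was at 793 CPM in WT 1-3 and at 8.30 to 49.5 CPM in the other WT libraries, with medians of 16.5 CPM in WT and 10.4 CPM in KI. The next highest libraries were KI 2-1 at 83.5 CPM and WT 1-2 at 49.5 CPM. WT 1-3, KI 2-1 and WT 1-2 also had the lowest read totals, at 717506, 936912 and 944453. The part of depth in these values was not tested. Dvl2 averaged 6.34 ± 4.90 CPM in the WT and 12.2 ± 6.70 CPM in the KI libraries (log2 fold change 0.90, SE 0.61, edgeR adjusted p 0.938). Dvl1 had a log2 fold change of -0.12.

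Among the other destruction complex genes and their regulators 18 of 21 were tested, 5 higher and 13 lower in KI, with a median log2 fold change of -0.22. Those with the smallest p-values were casein kinase genes. Csnk1a1, whose kinase primes beta-catenin for GSK3-beta, averaged 174 ± 43.9 CPM in the WT and 131 ± 21.2 CPM in the KI libraries (log2 fold change -0.41, SE 0.22, edgeR adjusted p 0.919). Csnk1g3 averaged 58.3 ± 35.7 and 31.8 ± 26.0 CPM (log2 fold change -0.88, SE 0.48, edgeR adjusted p 0.919). Of 23 nuclear partners of beta-catenin and TCF proteins 15 were tested, 7 higher and 8 lower, with a median of -0.02. Tcf7l1, which encodes the TCF family member TCF3, was again highest in WT 1-3, at 2336 CPM. KI 2-1 at 662 CPM and WT 1-2 at 301 CPM came next, the order seen for Dvl3. The WT libraries other than WT 1-3 were at 95.9 to 301 CPM and the KI libraries at 36.5 to 662 CPM. The log2 fold change of Tcf7l1, -1.58 (SE 0.78), had an edgeR adjusted p of 0.919. Pygo2, a co-activator of beta-catenin, was at -0.60 (SE 0.40, edgeR adjusted p 0.938).

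General Wnt targets, mostly known from epithelium, were little expressed: 12 of 26 had no read and 4 were tested, 1 higher and 3 lower. Birc5, which encodes survivin and is also a gene of dividing cells, averaged 13.5 ± 8.61 CPM in the WT and 32.7 ± 19.2 CPM in the KI libraries. Of its KI libraries 4 lay above all WT libraries, and its log2 fold change was 1.24 (SE 0.52), with an unadjusted edgeR p of 0.0283 and an adjusted p of 0.917. Ascl2, a target that also acts in early Tfh cells, was at 23.8 ± 17.7 and 12.8 ± 4.44 CPM, with a log2 fold change of -0.88 (SE 0.49, edgeR adjusted p 0.919). Cd44 was at -0.50 and Id2 at -0.79, with edgeR adjusted p-values of 0.938 each. Myc, the best known of these targets, was below the filter with 146 reads over 12 libraries, and Ccnd1 had 21. No common direction was seen in the 4 targets that could be tested.

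Genes that TCF-1 or LEF-1 are known to activate in T cells were well covered, with 22 of 22 tested. Of them 8 were higher and 14 lower in KI, with a median log2 fold change of -0.18, and 0 were called. At an unadjusted edgeR p under 0.05 there were 6 of the 22, with 2 higher and 4 lower, against 5.40% of all tested genes (407, with 186 higher and 221 lower). Id3, which encodes a helix-loop-helix inhibitor, averaged 355 ± 81.5 CPM in the WT and 508 ± 86.6 CPM in the KI libraries. Of its KI libraries 5 of 6 lay above all WT libraries. This was a log2 fold change of 0.51 (SE 0.19, edgeR adjusted p 0.914). Cd27, a costimulatory receptor, was at 597 ± 80.3 and 777 ± 117 CPM, with a log2 fold change of 0.38 (SE 0.17, edgeR adjusted p 0.917).

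Among the lower ones were Eomes, Satb1 and Il7r. Eomes, a transcription factor of cytotoxic and memory cells, averaged 93.4 ± 87.4 CPM in the WT and 25.9 ± 30.4 CPM in the KI libraries, with a log2 fold change of -1.85 (SE 0.73, edgeR adjusted p 0.914). Satb1, a chromatin organizer, had a log2 fold change of -0.52 (SE 0.21, edgeR adjusted p 0.914). Il7r, the interleukin-7 receptor, had one of -1.21 (SE 0.55, edgeR adjusted p 0.917). Genes of the same list thus lay on both sides of 0.

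Genes that TCF-1 or LEF-1 are known to repress in T cells were mostly low, with 4 of 14 tested, all 4 lower in KI and 0 called. The log2 fold changes were -0.79 for Id2, -0.32 for Runx3, -0.10 for Tbx21 and -0.09 for Cd160. Cytotoxic marker sums, which include genes of this list, ran from 47.2 to 455 CPM in WT and from 52.2 to 409 CPM in KI. By first number they ran from 47.2 to 184 CPM at number 1 and from 209 to 455 CPM at number 2, without overlap. Their part in these log2 fold changes was not tested.

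**Figure D3:**
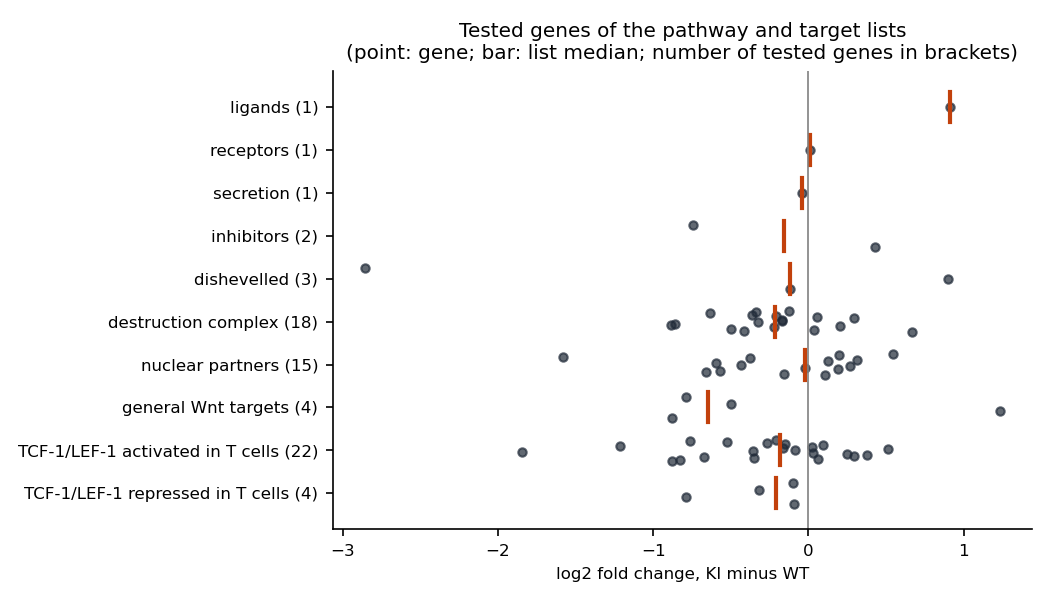
Log2 fold change of KI minus WT (horizontal axis) for each tested gene of 10 lists, with the list median as a bar and the number of tested genes in brackets. The points of the larger lists lie on both sides of 0, and Dvl3 at -2.86 and Eomes at -1.85 lie farthest to the left.

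The neighbours of Rnf43 on chromosome 11 are described next. The results for 1110028F11Rik and Supt4h1 were known when they were chosen, so this was not an independent look at the region. The gene inside Rnf43, 1110028F11Rik, was at 10.5, 16.9 and 25.1 CPM in the lowest, median and highest WT library and at 47.1, 62.4 and 81.3 CPM in KI. All 6 KI libraries lay above all 6 WT libraries, with a log2 fold change of 1.87 (SE 0.32). It is described without a test. The sources do not say whether counting used strand, and an unspliced Rnf43 RNA would also yield reads within it.

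Supt4h1 (chr11:87551054-87557125, + strand), which encodes a subunit of the DSIF transcription elongation factor, begins 2012 bases after the end of Rnf43. It was at 111, 169 and 262 CPM in WT and at 253, 364 and 555 CPM in KI. Of the KI libraries 5 were above all WT libraries, and within each first number all 3 KI libraries were above all 3 WT libraries. The means were 128 ± 17.1 and 279 ± 30.8 CPM at first number 1, and 221 ± 35.9 and 467 ± 76.8 CPM at first number 2 (SD, n = 3 each). The log2 fold change of KI over WT was 1.09 (SE 0.24), also described without a test. Supt4h1 has a near-identical copy elsewhere in the genome, so its reads may be split or set aside.

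Bzrap1 (chr11:87574043-87599430, + strand), which encodes a protein that binds the benzodiazepine receptor TSPO, starts 97.8 kb after the start of Rnf43. It was at 58.9, 74.2 and 133 CPM in WT and at 114, 151 and 198 CPM in KI, with WT 1-1 at 133 CPM above the KI libraries of first number 2. Within first numbers its groups did not overlap either, at 69.6 to 133 against 185 to 198 CPM and at 58.9 to 84.4 against 114 to 117 CPM. The share of all tested genes with such a split is not given here, so for Supt4h1 and Bzrap1 it is description only. Its log2 fold change was 0.90 (SE 0.25, edgeR adjusted p 0.695).

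On the other side, Mtmr4 (70.6 kb before Rnf43) ran from 10.6 to 28.1 CPM in WT and from 0 to 38.6 CPM in KI, with a log2 fold change of -0.13 (SE 0.69). The gene inside Rnf43 and the 2 tested genes that follow it thus had log2 fold changes of 0.90 to 1.87. The microRNA gene Mir142 lies between Supt4h1 and Bzrap1 and was below the filter, with 45 reads in all. It went the other way, with a lower mean for the KI libraries (1.75 CPM) than for the WT libraries (4.20 CPM). Its two-sided exact permutation p was 0.0281, unadjusted. The same p was computed for every counted neighbour below the filter, and only this one is given. Mir142 had 0 to 7 reads per library, and its deposited FPKM was 0 in every library. The other 4 tested genes within 500 kb were Rad51c (-0.18), Dynll2 (-0.36), Sfrs1 (-0.13) and Vezf1 (-0.09), with edgeR adjusted p-values of 0.946 to 0.988. From 500 to 5000 kb, 20 of 40 tested genes were higher and 20 lower, with a median of -0.0039 and a highest value of 0.82. Gene-level counts cannot tell apart the several starts of Rnf43, or reads that run on past its end. Whether the 4 higher genes share a cause was not tested.

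**Figure D4:**
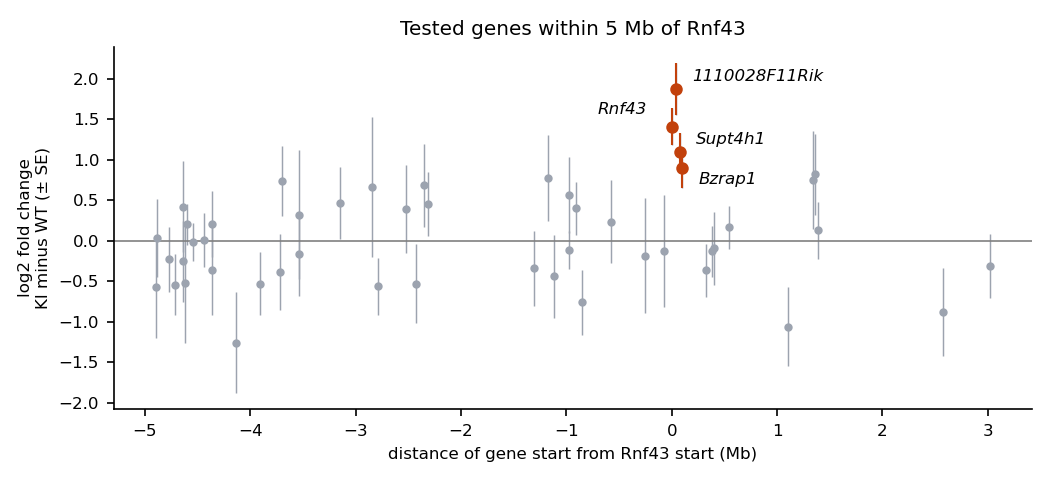
Log2 fold change of KI minus WT (vertical axis, ± SE) against the distance of each tested gene's start from the start of Rnf43 in Mb (horizontal axis). Rnf43 and the 3 other named genes, in orange, lie at 0.90 to 1.87, and none of the other genes exceeds 0.82.

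**Figure D5:**
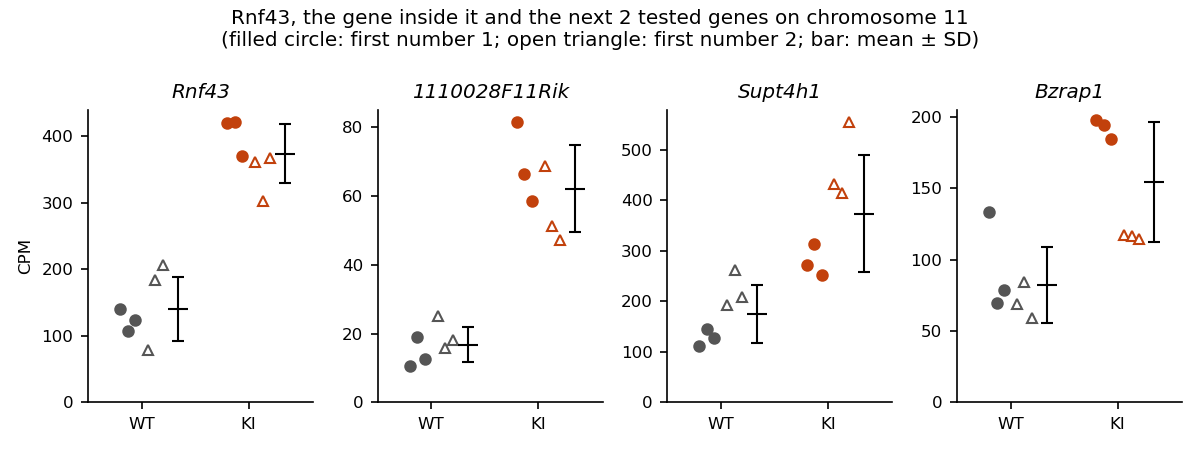
Level in CPM (vertical axes, from 0) of Rnf43, 1110028F11Rik inside it and Supt4h1 and Bzrap1 after it, in 6 WT (grey) and 6 KI (orange) libraries, with first number 1 as filled circles, first number 2 as open triangles and the mean ± SD as a bar. KI lies above WT within each first number in all 4 panels, Supt4h1 is higher at first number 2 in both genotypes, and Bzrap1 is lower there in KI.

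The first number was a contrast that played no part in choosing any member. In the edgeR fit with genotype, 1208 of 7542 genes (16.0%) differed between first numbers, and 1 of the 7 tested members did, a share near that background. This was Axin1, which ran from 62.6 to 124 CPM at first number 1 and from 37.0 to 87.9 CPM at first number 2. Its log2 fold change of -0.80 (SE 0.25) for number 2 against number 1 had an edgeR adjusted p of 0.0321, and the 2 ranges overlapped. The call was lost without WT 1-2 (adjusted p 0.0927), WT 2-2 (0.0609), WT 2-3 (0.0765), KI 1-2 (0.0529), KI 1-3 (0.0530), KI 2-1 (0.0515) or KI 2-2 (0.0851). Without KI 2-2 the number of genes that differed fell from 1208 to 751. Rnf43 did not differ by first number (0.04, SE 0.20, edgeR adjusted p 0.913). The values were 0.05 for Tcf7, 0.10 for Lef1, 0.38 for Apc, 0.40 for Ctnnb1 and -0.86 for Gsk3b, with edgeR adjusted p-values of 0.142 to 0.880.

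Gsk3b averaged 51.2 ± 19.2 CPM at first number 1 and 16.6 ± 7.15 CPM at first number 2 in WT, and in KI the levels were 37.2 ± 27.1 and 33.5 ± 1.99 CPM (SD over 3 libraries). At first number 1 the 3 KI libraries were at 25.4, 68.2 and 17.9 CPM, so that mean rested on KI 1-2. Neither the first number (edgeR adjusted p 0.156) nor its interaction with genotype (1.45, SE 0.75, edgeR adjusted p 0.724) passed for Gsk3b. Of the 69 tested list genes, 14 (20.3%) passed for the first number, a share near the 16.0% of all tested genes. Of the 14, 12 were higher at number 2, against 639 of the 1208 genes over the whole table. Among them, named after their values were seen, were Tnks2, a tankyrase that destabilizes Axin (means of 51.7 and 133 CPM, edgeR adjusted p 0.000904), and Gpr177 (log2 fold change 1.78, edgeR adjusted p 0.00760). Others were Eomes (2.11, edgeR adjusted p 0.0134), the Tfh receptor gene Slamf6 (0.87, edgeR adjusted p 0.000790) and, lower at number 2, the chemokine receptor gene Cxcr5 (-0.72, edgeR adjusted p 0.00208). The cytotoxic marker sums given above were higher at number 2, and their part in these values was not tested.

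Within each genotype the relation of Rnf43 to the other tested members, and of Tcf7 to Lef1, was computed over the 6 libraries, 14 relations in all. In KI, Rnf43 and Axin1 had the highest correlation (Pearson r 0.90, exact permutation p 0.00139, the smallest that 720 orders allow, adjusted over the 14 relations 0.0194; Spearman rho 1.00, exact permutation p 0.00278). Without the 2 KI libraries farthest from the median of Rnf43, r was 0.59, so the strength of the relation rests partly on those 2. In WT the same relation was negative (r -0.56, rho -0.60, exact permutation p 0.254 and 0.242). In KI both genes were lower at first number 2, at 343 ± 35.9 against 404 ± 29.1 CPM for Rnf43 and 60.8 ± 25.6 against 99.2 ± 1.73 CPM for Axin1. The permutation takes no account of this, and each first number holds too few libraries for a value of its own. Over the 12 libraries, with the mean of each genotype and first number removed, the r of Axin1 with Rnf43 was -0.27, rank 5840 of 7541 genes, a value that joins both genotypes. The other 13 relations did not pass, with adjusted exact permutation p from 0.337 to 0.939. Tcf7 and Lef1 had r -0.27 in WT and -0.78 in KI (rho -0.26 and -0.77, exact permutation p 0.569 and 0.0681 for r, 0.658 and 0.103 for rho).

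By Pearson r of log2 CPM over the 12 libraries, the tested genes most like Rnf43 were Zfp692 (0.88), Tsnax (0.88), Samhd1 (0.86), RP23-303F24.3 (0.85) and Ube2z (0.85). These r values are descriptions over libraries that share genotype and first number. The genes named as closest, here and below, were picked as the highest of 7541, so their r values are high by selection. Among the 7541 other genes 1110028F11Rik ranked 6 (0.83), Supt4h1 32 (0.76), Bzrap1 33 (0.76), and Ctnnb1, the closest member, 132 (0.65). After the mean of each genotype and first number was removed, the closest were Slc4a8 (0.96), Nln (0.95), Lmo4 (0.94), Med29 (0.90) and Araf (0.89), and 1110028F11Rik was at -0.53. The r of 1110028F11Rik with Rnf43 thus changed sign once the group means were removed. For Tcf7 the closest were Pptc7 (0.83), Gm13654 (0.82) and Sepw1 (0.81), and after removal of group means LOC100503946 (0.96), Maf (0.96) and LOC100504272 (0.94). Maf encodes a transcription factor of Tfh cells. For Lef1 they were Atxn2 (0.92), Vps13a (0.89) and Mkrn1 (0.87), and after removal Vps13a (0.91), Atxn2 (0.91) and Cul4a (0.89).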

How the data were processed

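Per the submitters' processing notes, the tools used before deposit were CASAVA, TopHat2, Cufflinks, HTSeq and DESeq2 on build mm9; their versions, settings and any use of strand are not given in the sources used here. The authors deposited raw read counts per gene (25793 gene entries and 5 summary entries of unassigned reads, left out here) and FPKM values, in which 28 repeated names were summed here. The analysis of counts used edgeR 4.0.16 under R 4.3.3: default filterByExpr (7542 genes kept), TMM scaling, glmQLFit and glmQLFTest, and Benjamini-Hochberg adjustment over all tested genes with a threshold of 0.05. Standard errors come from the fold change and its F statistic, and CPM uses TMM-scaled totals. Axin2 and Znrf3, below the filter, were tested by exact permutation (two-sided) on log2(CPM + 1) over 924 splits, whose smallest p is 0.00216. The same p was computed for the counted neighbours of Rnf43 below the filter. The test was checked on simulated counts. The text names the 9 members, Pdcd1, 1110028F11Rik, tested genes within 500 kb of Rnf43, the 2 genes of smallest p in each list and any called, and the genes most like Rnf43 (5), Tcf7 and Lef1 (3 each); other genes are named after their values were seen, and 1 list gene that the rule names is not reported here. The members and lists were chosen with earlier results of these data known. Symbols were matched to GENCODE vM1, with Wls found as Gpr177, Amer1 as Fam123b and Srsf1 as Sfrs1. Tried beside this were DESeq2 1.42.0, scaling by RLE or the upper quartile, limma-voom, limma 3.58.1 on log2(FPKM + 1) or log2(FPKM + 0.1), other filters, blocks, library subsets and leaving out each library.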

Additional observations from a re-analysis of the deposited data

Results flagged for a closer look

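In 5 of 36 groups of 6 libraries, over the members, Pdcd1 and the tested genes near Rnf43, 1 library stood farther from the rest than Dixon's criterion allows. By that criterion its distance from the next library, divided by the group's range, is above 0.625. Chance would give about 1.8 for normal and independent values, which these CPM values need not be. Znrf3 was at 12.53 CPM in WT 1-3, next to 2.36 CPM in the following WT library, from 7 reads. Rad51c, also in WT 1-3, was at 32.21 CPM (18 reads) against 10.7 CPM in the next WT library. WT 1-3 had the lowest read total and the lowest share of assigned reads, and the part of these in the 2 values was not tested. Gsk3b reached 68.18 CPM in KI 1-2 (110 reads) against 34.6 CPM in the next KI library. Bzrap1 was at 133.3 CPM in WT 1-1 (191 reads) against 84.4 CPM in the next WT library, and this library alone made its WT range reach the KI libraries. Sfrs1 was at 98.13 CPM in WT 2-3 (130 reads) against 63.6 CPM in the next WT library.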

How the results depend on the processing

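Against 2 genes changed between the genotypes, DESeq2 gave 11, limma-voom 1, no filter 4, first number 1 alone 3, first number 2 alone 1, libraries summed per genotype and first number 0, and limma on log2(FPKM + 1) or log2(FPKM + 0.1) 0 each; leaving out 1 library gave 0 to 2. With the first title number as a replicate block 4 genes were changed, and with both numbers as a replicate block 3, and no call on a member other than Rnf43 or on a list gene changed. The labels do not say that the numbers pair libraries. Deviations of WT and KI libraries with the same 2 numbers correlated at 0.0828 to 0.258, and 4 of 12 libraries correlated best with their own pair, so the numbers were not taken to pair. In all 26 alternatives 0 members other than Rnf43 and 0 list genes were called, and Rnf43 was higher in KI by 1.13 to 1.70. Axin2, Znrf3 and the list genes below the filter could not be called in a fit that left them out, so this count says nothing of them there. Of the 20 alternatives for Axin2 itself, 18 left its result unchanged and 2 were stronger. These 2 were the exact permutation without KI 1-3 (p 0.00866) and that on log2(FPKM + 1) (p 0.0411). In first number 1 alone Tcf7 was at -0.057 and Lef1 at 0.14. For the first number, 1208 genes became 367 in WT alone and 406 in KI alone, and 751 to 1252 without 1 library. The count of members called, 1, became 0 in WT alone and in KI alone, and 0 to 1 without 1 library. Axin1 was then at -0.91 and -0.70, both past no threshold, and at -0.97 to -0.66 without 1 library. The cause was not tested. Scaling moved the median of all genes by no more than -0.0124. Depth limits Znrf3 and Axin2, with 34 and 111 reads in all.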
